A study of Mus musculus with 3 samples.

Results

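The V(D)J recombination and end-joining genes are 10 genes chosen by name. 3 of them, Rag1, Rag2 and Dntt, act only in lymphocyte precursors, and 7, Xrcc5, Xrcc6, Xrcc4, Lig4, Prkdc, Dclre1c and Nhej1, join broken DNA ends in all cells. All 10 had UMIs (unique molecular identifiers, counted as captured transcripts) in each section, out of 34641 genes with UMIs among 54838 listed. They were measured by spatial transcriptomics on the BMKMANU S1000 slide in 3 thymus sections of female C57BL/6 mice, 1 section per mouse. 2 sections came from Trp53-/- mice, named KO1308 (21 weeks old) and KO1134 (17 weeks old), and 1 from a Trp53+/+ mouse, WT1101 (17 weeks old). The study describes no treatment of these mice. It describes anaesthesia and perfusion with saline for the mice of its single-cell assays, and its spatial methods do not state whether these mice were perfused. With a single WT section no test between genotypes was made, and levels are given as counts per 1000000 UMIs of a compartment (CPM), with exact 95% Poisson intervals. Ratios carry exact 95% conditional binomial intervals, and both kinds cover counting error only. The difference between the Trp53-/- sections, of which KO1308 is also labelled as the older, is the only spread between mice. Sections and ages follow the GEO labels. The number of bins that the study lists for the older Trp53-/- mouse is closer to that of the section labelled as the younger, so which Trp53-/- section belongs to which mouse and age is uncertain.

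RAG1 and RAG2 form the endonuclease that cuts antigen receptor loci beside recombination signal sequences, leaving hairpin ends on the coding segments. Ku (Xrcc5 and Xrcc6) holds the ends and recruits the DNA-dependent kinase (Prkdc) and Artemis (Dclre1c), which opens the hairpins, Dntt adds nucleotides without a template, and XRCC4, XLF (Nhej1) and ligase IV (Lig4) seal the joint. In the thymus the RAG genes are active in early thymocytes at the β locus and again in cortical CD4+CD8+ thymocytes at the α locus, and they are silenced as cells mature and enter the medulla.

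The windows before the annotated starts differed between the lymphoid genes and most of the general genes. RefSeq windows of 250 bases upstream of the start (GRCm38.p6) were found for 9 of the 10 genes, Lig4 with 2 starts; none was used for Prkdc. The sequences of 5 genes are shown because their transcripts were cortical in every section, as described below, while their upstream sequences fall into distinct classes. They are written 5′ to 3′ on the gene's strand, with CpG dinucleotides in capitals.
Rag1, chr2:101649533-101649782, minus strand: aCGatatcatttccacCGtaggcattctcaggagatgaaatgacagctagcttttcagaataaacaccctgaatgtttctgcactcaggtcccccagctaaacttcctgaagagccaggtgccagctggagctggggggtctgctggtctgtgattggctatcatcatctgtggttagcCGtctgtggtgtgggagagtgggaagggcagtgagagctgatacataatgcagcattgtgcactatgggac
Rag2, chr2:101624462-101624711, plus strand: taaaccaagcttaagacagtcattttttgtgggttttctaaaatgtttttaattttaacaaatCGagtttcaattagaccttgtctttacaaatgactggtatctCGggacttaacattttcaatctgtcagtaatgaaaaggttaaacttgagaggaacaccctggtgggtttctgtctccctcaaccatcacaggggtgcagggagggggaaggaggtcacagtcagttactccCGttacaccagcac
Dntt, chr19:41029025-41029274, plus strand: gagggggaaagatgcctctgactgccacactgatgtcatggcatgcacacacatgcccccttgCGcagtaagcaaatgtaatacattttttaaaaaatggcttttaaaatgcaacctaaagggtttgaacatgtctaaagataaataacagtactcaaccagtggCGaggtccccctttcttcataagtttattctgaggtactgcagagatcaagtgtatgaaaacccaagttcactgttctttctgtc
Xrcc6, chr15:82016119-82016368, plus strand: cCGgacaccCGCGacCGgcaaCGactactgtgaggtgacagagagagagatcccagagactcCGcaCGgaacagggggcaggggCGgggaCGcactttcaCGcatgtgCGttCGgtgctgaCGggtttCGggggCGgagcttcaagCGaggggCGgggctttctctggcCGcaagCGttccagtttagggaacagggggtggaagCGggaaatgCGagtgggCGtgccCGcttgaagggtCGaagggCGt
Lig4, chr8:9977681-9977930, minus strand: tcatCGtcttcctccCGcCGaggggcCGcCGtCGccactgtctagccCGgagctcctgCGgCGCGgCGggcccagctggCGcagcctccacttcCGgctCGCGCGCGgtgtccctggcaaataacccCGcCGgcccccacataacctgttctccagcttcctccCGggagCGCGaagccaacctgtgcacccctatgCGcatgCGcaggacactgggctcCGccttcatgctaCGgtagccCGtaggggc
Rag1, Rag2 and Dntt had 3, 3 and 2 CpG in these windows, against a median of 6 over 32851 windows of the table. Xrcc6, Xrcc4 and Lig4 had 25, 26 and 27, more than 89.3%, 90.4% and 91.4% of all windows. Xrcc5, Dclre1c and Nhej1 lay between, with 5, 8 and 9. The GC box GGGCGG, searched on both strands, was found in the windows of Xrcc6, Xrcc4, Dclre1c and Nhej1 and at the second Lig4 start, and in none of the lymphoid genes; it occurs in 32.7% of all windows. The Runx core TGTGGT occurred at 2 places in the Rag1 window and in no other member's window, and is found in 14.0% of all windows. The E-box CANNTG, present in 66.2% of all windows, was found for every member with a window except Xrcc4. The Ikaros core TGGGAA (21.6% of windows) was found for Rag1 and at the second Lig4 start. Neighbouring motifs were allowed to share letters. A match is a description of the letters and not evidence of binding.

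Gene models matter for reading these counts. On chromosome 2, Rag1 (101638282-101649501, minus strand) and Rag2 (101624718-101632529, plus strand) both lie inside the span of B230118H07Rik (101560781-101649532, minus strand). The last base of that gene's span, 101649532, is also the RefSeq start of Rag1, so the Rag1 window above precedes both. Exons of Rag1 and B230118H07Rik share 80 bases, and those of Rag2 and B230118H07Rik share 208. Xrcc6 shares 344 exon bases with Desi1, Dclre1c 357 with Suv39h2 and Xrcc4 112 with Tmem167, each on the opposite strand. Rag1 and B230118H07Rik lie on the same strand, so the strand cannot separate reads from their shared bases. For the pairs on opposite strands, whether counting used the strand is not given in the sources used here. Reads from those shared bases cannot be told apart either. The Xrcc6 window above lies inside the gene models of Xrcc6 (81987835-82040085) and Desi1 (81992523-82033862), not before them. Dntt (chromosome 19), Xrcc5 and Nhej1 (chromosome 1) and Lig4 (chromosome 8) overlapped no other gene.

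The sections held 21089885, 31237062 and 41581477 UMIs (KO1308, KO1134 and WT1101), and 16140, 12009 and 27104 tissue bins of 27 µm with a mean of 1090, 2591 and 1497 UMIs. Each bin can hold several cells. Compartments were set by the surroundings of a bin. The cortical epithelial genes were Psmb11, Prss16, Ccl25 and Tbata, and the medullary ones Aire, Fezf2, Cldn3, Cldn4, Krt5 and Krt14. The share of each list was divided by its average in the section. Cortex was where the cortical list reached its average and exceeded the medullary list on this scale, and medulla the reverse. In CPM the cortical list was higher even in medulla, at 1494, 1530 and 1378 against 812, 511 and 331. Cutoffs thus differ between sections, and their part in the ratios to WT was not tested. The B-cell zone was where Cd79a, Cd79b and Ms4a1 outnumbered 6 thymus genes (Themis, Arpp21, Ptcra, Cd8b1, Prss16, Psmb11). Cortex held 6262, 5129 and 9983 bins and medulla 6607, 3141 and 8596. The B-cell zone held 449 and 1959 bins in the Trp53-/- sections and 0 in WT1101, so that compartment has no WT value. Trp53 itself stood at 23.8 and 14.1 CPM in Trp53-/- cortex against 82.1 in WT; which part of the gene is removed is not given in the sources used here. The WT tissue was permeabilised for a slightly shorter time than the Trp53-/- tissue, so capture and genotype cannot be told apart. Between 5572 and 13670 slide barcode sequences were shared by any pair of slides.

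Rag1, the catalytic subunit of the recombinase, was highest in WT cortex and lowest in KO1134. It stood at 387 CPM in the cortex of KO1308 (2962 UMIs), 50.2 in KO1134 (724 UMIs) and 679.6 in WT1101 (11860 UMIs). In medulla the levels were 173, 18.5 and 511 CPM, and in the B-cell zone 25.7 and 3.62. The order WT1101, KO1308, KO1134 held in both thymic compartments with no overlap of counting intervals. KO1134 reached 0.0738 of the WT cortex level (0.0684 to 0.0796) and KO1308 0.570 (0.547 to 0.593), so the Trp53-/- sections differed from each other more than KO1308 differed from WT.

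Rag2, its partner, followed the same order with fewer UMIs. Cortex held 44.9 CPM in KO1308, 2.29 in KO1134 and 104 in WT1101, from 343, 33 and 1819 UMIs. Medulla held 18.0, 0.655 and 65.9 CPM, the KO1134 value resting on 5 UMIs. In the B-cell zones 2 and 1 UMIs were counted, which is under the floor of 3 UMIs. The cortex of KO1134 stood at 0.0219 of WT (0.0151 to 0.0309) and that of KO1308 at 0.430 (0.382 to 0.483). Rag1 UMIs per Rag2 UMI were 6.52 in WT cortex (6.21 to 6.85), 8.64 in KO1308 (7.72 to 9.69) and 21.9 in KO1134 (15.5 to 32.1), so Rag2 was lower still than Rag1 in both Trp53-/- sections.

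Dntt, which encodes terminal deoxynucleotidyl transferase, differed far less between the sections. Its cortex level was 775 CPM in KO1308, 605 in KO1134 and 1206 in WT1101, and its medulla level 325, 257 and 763. The ratios to WT cortex were 0.643 (0.624 to 0.661) and 0.502 (0.490 to 0.515). KO1134 kept a Dntt level close to that of KO1308 while its Rag1 level was 0.129 of that section's. Dntt UMIs per Rag1 UMI, a ratio that needs no scaling, were 1.77 in WT cortex, 2.0 in KO1308 and 12.1 in KO1134 (11.2 to 13.0). The ratio was as high in the other compartments of KO1134, at 13.9 in medulla and 15.05 in the B-cell zone, the latter on 22 Rag1 UMIs. The mean of the Trp53-/- sections, 3.97 times WT, rests on KO1134: without it the value was 1.13, and without KO1308 it was 6.80.

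**Figure D1:**
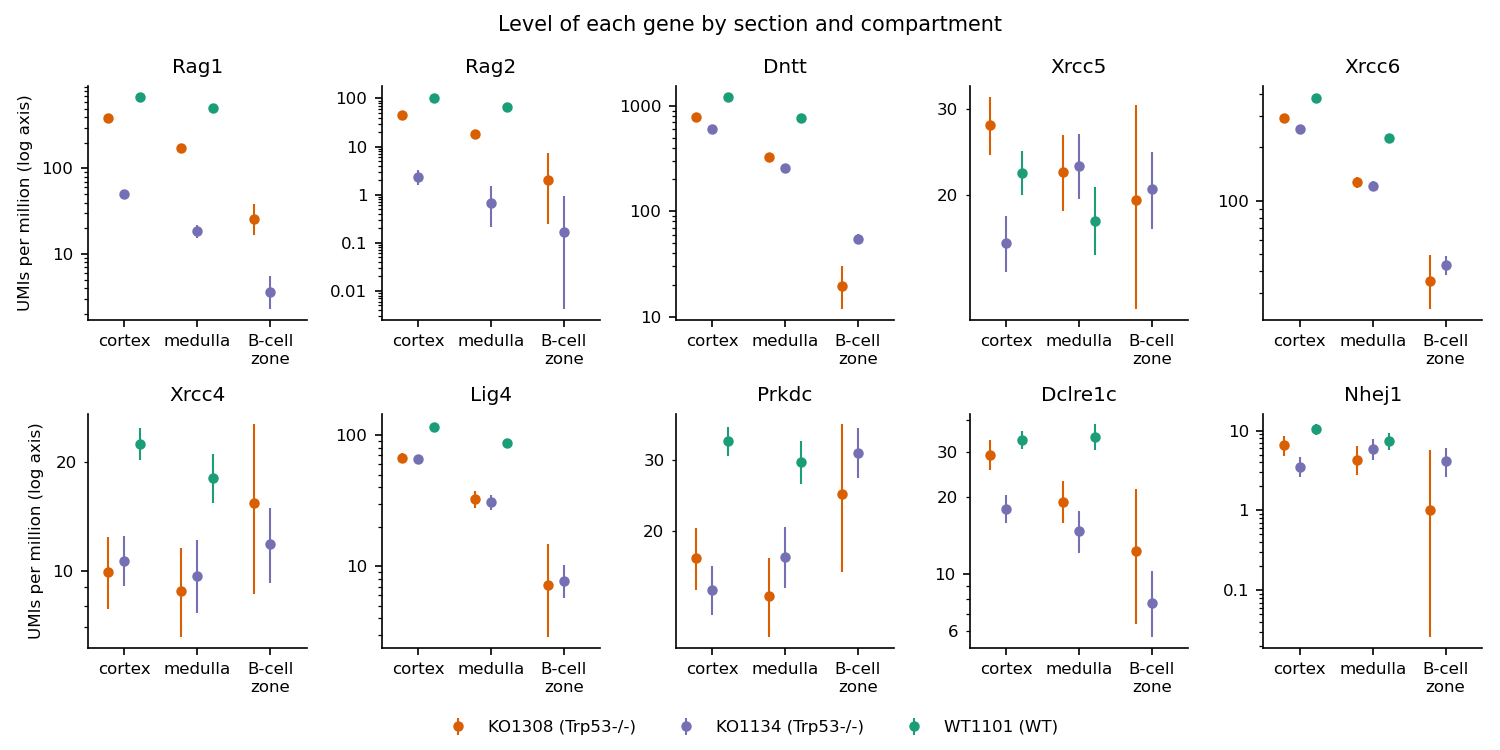
Level of each of the 10 genes in CPM (log axes, separate for each gene) in cortex, medulla and B-cell zone; points are single sections and bars exact 95% Poisson intervals, and WT1101 has no B-cell zone. Rag1, Rag2, Dntt, Xrcc6 and Lig4 step down from cortex to B-cell zone, whereas Xrcc5, Xrcc4 and Prkdc do not beyond their intervals.

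Among the general end-joining genes, the Ku subunits parted company. Xrcc6 was counted at 293 CPM in the cortex of KO1308, 255 in KO1134 and 379 in WT1101, and fell to 127, 122 and 227 in medulla and to 35.0 and 43.0 in the B-cell zones. Xrcc5, whose protein is its obligate partner, stood at 27.7, 16.0 and 22.2 CPM in cortex and 22.3, 22.9 and 17.8 in medulla, with 19.5 and 20.6 in the B-cell zones. Its counting intervals overlapped among the 3 sections in medulla and among the 3 compartments of KO1308. Xrcc6 UMIs per Xrcc5 UMI therefore changed with place: 17.1 in WT cortex, 12.8 in WT medulla, 15.9 and 5.30 in the cortex and medulla of KO1134, and 2.09 in its B-cell zone. In KO1308 the same ratio was 10.6, 5.70 and 1.79.

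The ligase and its scaffold also differed by place. Lig4, the catalytic subunit, stood at 66.4, 66.0 and 115 CPM in cortex (KO1308, KO1134, WT1101), 32.3, 30.7 and 86.9 in medulla, and 7.20 and 7.74 in the B-cell zones. The Trp53-/- sections were indistinguishable from each other within counting error, with a KO1134 to KO1308 cortex ratio of 0.994 (0.891 to 1.11). Xrcc4, the scaffold of the ligase, was sparse, at 9.94, 10.7 and 22.5 CPM in cortex, 8.81, 9.70 and 18.1 in medulla and 15.4 and 11.9 in the B-cell zones. Lig4 UMIs per Xrcc4 UMI were 6.68, 6.19 and 5.14 in cortex. In the B-cell zones they were 0.467 (0.161 to 1.22) and 0.653 (0.442 to 0.956), on 7 and 47 Lig4 UMIs. Relative to the scaffold, the ligase transcript was lower in the B-cell zones than in cortex. The zones were set by few UMIs of thymus genes, and the part of that rule in this difference was not tested.

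Prkdc, whose loss causes the scid defect in mice, stood at 17.1, 14.3 and 33.4 CPM in cortex and 13.8, 17.3 and 29.7 in medulla. In the B-cell zones it stood at 24.7 and 31.3 CPM, above the cortex beyond counting error in KO1134. Dclre1c, encoding the hairpin-opening nuclease, was counted at 29.2, 17.9 and 33.4 CPM in cortex, 19.2, 14.7 and 34.3 in medulla and 12.3 and 7.74 in the B-cell zones. Nhej1 was the scarcest general gene, with 6.54, 3.53 and 10.4 CPM in cortex from 50, 51 and 181 UMIs. Its medulla levels were 4.32, 5.90 and 7.45 CPM, with overlapping intervals between neighbours in that order.

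Compared with medulla, the cortex carried more of all 3 lymphoid genes and of Xrcc6 and Lig4 in 3 of 3 sections. In KO1308, 7 of the 10 genes passed 1.5-fold higher in cortex, against 10.9% of all 14844 genes with at least 50 UMIs in both compartments together; 0 members passed 1.5-fold lower, against 19%. In KO1134, 4 of the 9 members with enough UMIs passed higher (background 10.7%) and 1, Nhej1, passed lower (background 19%). In WT1101, 3 of 10 passed higher (background 4.97%) and 0 lower (background 17.4%). The direction in 3 of 3 sections is a description, since an exact sign test on 3 sections cannot go below 0.25.

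Values per gene show how far the members split. The cortex to medulla ratios of Rag1 were 2.24, 2.71 and 1.33 in KO1308, KO1134 and WT1101, those of Rag2 were 2.498, 3.49 and 1.58, and those of Dntt were 2.38, 2.36 and 1.58. Xrcc6 gave 2.31, 2.09 and 1.67 and Lig4 2.06, 2.15 and 1.33. Both therefore fell within the range of the lymphoid genes or close to it, and in each of the 5 genes the ratio was higher in both Trp53-/- sections than in WT. Xrcc5 gave 1.24, 0.698 and 1.25, Prkdc 1.24, 0.825 and 1.13, and Xrcc4 1.13, 1.10 and 1.24. For Xrcc5 the KO1134 interval (0.571 to 0.854) lay below 1 and the WT interval (1.04 to 1.51) above it. Dclre1c stood at 1.52, 1.22 and 0.973, and Nhej1 at 1.51, 0.599 and 1.39. The medullary epithelial genes were counted at 812, 511 and 331 CPM in medulla and at 266, 83.9 and 40.7 in cortex, and the part of this in the ratios was not tested.

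Against the B-cell zone the split was wider. That zone was set where B cell genes outnumbered thymus genes, among them the thymocyte genes Themis, Arpp21, Ptcra and Cd8b1. Low levels of other genes of the same cells there follow in part from this rule. The ratios and the counts against the background are therefore a description. Cortex exceeded the B-cell zone 15.1-fold and 13.8-fold for Rag1 (KO1308 and KO1134), 39.6-fold and 11.1-fold for Dntt, 8.38-fold and 5.93-fold for Xrcc6, 9.23-fold and 8.53-fold for Lig4 and 2.36-fold and 2.32-fold for Dclre1c. For Rag2 the ratio in KO1308 was 21.8 (5.99 to 181), on 2 UMIs in the zone. Prkdc went the other way, at 0.694 (0.447 to 1.12) and 0.456 (0.373 to 0.559), and Xrcc4 stood at 0.644 (0.367 to 1.21) and 0.900 (0.676 to 1.21). In KO1308, 7 of 10 members passed 1.5-fold higher in cortex (background 27.9%) and 1, Xrcc4, lower (background 14.6%). Of these 7, Rag2 and Nhej1 had 2 and 1 UMIs in the zone and entered through their cortex counts, and 5 of the other 8 members passed higher. In KO1134, 5 of 9 passed higher (background 32.2%) and 1, Prkdc, lower (background 15.3%). The median gene was itself higher in cortex, at 1.14 and 1.17. With that median set to 1, the backgrounds were 20.5% and 20.6% in KO1308 and 23.7% and 22.5% in KO1134, the members higher were again 7, Rag2 and Nhej1 among them, and 5, and the members lower became 2 and 2. Of 3 B precursor genes, Ebf1, which mature B cells also express, had 30 and 181 UMIs in the zones (30.9 and 29.8 CPM). Vpreb1 had 1 and 7 (1.03 and 1.15 CPM, against 3.79 and 3.53 in cortex). Igll1 had 0, where the floor of 3 UMIs stands at 3.09 and 0.494 CPM. CD3 genes stood at 549 and 864 CPM there, and no cell type's share of the member UMIs was tested.

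**Figure D2:**
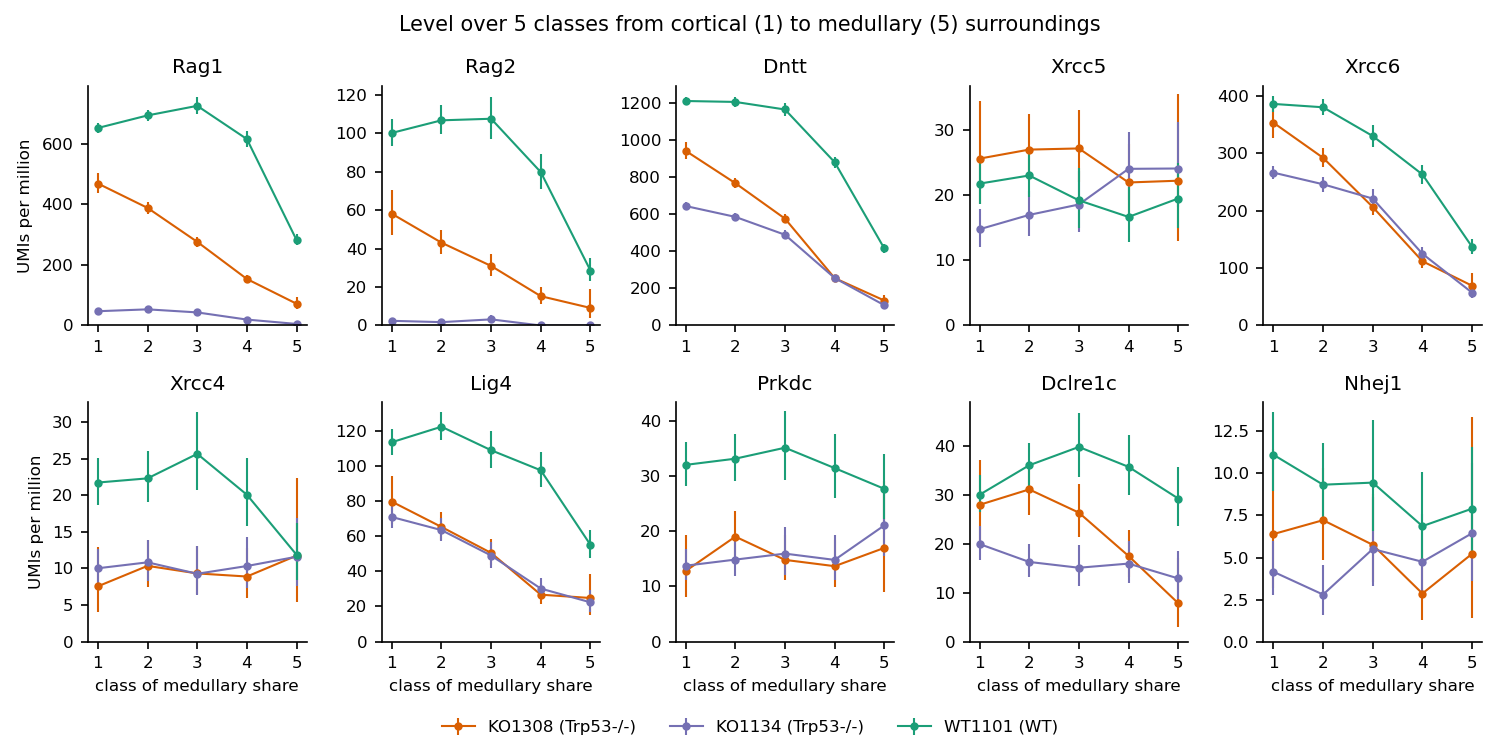
Level of each gene in CPM over 5 classes of cortex and medulla bins, from a medullary share below 0.2 (class 1) to at least 0.8 (class 5). The share is that of the medullary list among both epithelial lists around a bin, each first divided by its section average. Lines are sections and bars exact 95% Poisson intervals. Rag1, Rag2, Dntt, Xrcc6 and Lig4 drop toward class 5 in every section, and Xrcc5 and Prkdc show no drop beyond their intervals.

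The change from cortical to medullary surroundings was resolved with 5 classes of cortex and medulla bins. Bins outside cortex, medulla and B-cell zone were left out, which in WT1101 were 8525 bins with Rag1 at 707 CPM. In KO1308, Rag1 was lower in each further class, from 469 CPM in class 1 through 388, 276 and 153 to 71.8 in class 5. In WT1101 it was at 652 CPM in class 1 (635 to 669), 693 in class 2 and 725 in class 3 (698 to 753) before it reached 615 and then 282, so its highest level lay in the middle class rather than at the most cortical end. WT Dntt did not share that peak, with 1209, 1204 and 1163 CPM in the first 3 classes and 879 and 415 in the last 2. In KO1134, Dntt went from 643 to 109 CPM and Rag1 from 47.1 to 5.16. Xrcc6 followed Dntt in every section, ending at 69.2, 57.1 and 137 CPM in class 5. Xrcc5 in KO1134 ran the opposite way, with 14.8 CPM in class 1 and 24.1 in class 5 and counting intervals that did not overlap (12.04 to 17.9 and 18.2 to 31.2). Xrcc4 in WT was at 25.7 CPM in class 3 and 11.9 in class 5, while in KO1308 and KO1134 it lay between 7.56 and 11.7 CPM in all classes.

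Beside WT, most members were lower in both Trp53-/- sections. In cortex, 7 of 10 were at least 1.5-fold lower in KO1308, against 11.3% of the 15296 genes compared, and 8 of 10 in KO1134, against 20.2% of 15809. No member was 1.5-fold higher in either section, where 26.8% and 24.7% of all genes were. The median gene stood at 1.09 in KO1308 (log2 0.13) and 1.02 in KO1134. With the median set to 1, the background was 16.3% lower and 22.1% higher in KO1308 and 21.2% lower and 23.7% higher in KO1134, and the members lower were 7 and 9. In medulla, 9 of 10 members were 1.5-fold lower in KO1308 (background 14.4%) and 8 of 10 in KO1134 (background 18%), and 0 were higher in either section (backgrounds 24.9% and 19.8%). Both comparisons share the WT section. In tissue sums such as these, fewer cells of a type and less RNA per cell cannot be told apart.

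**Figure D3:**
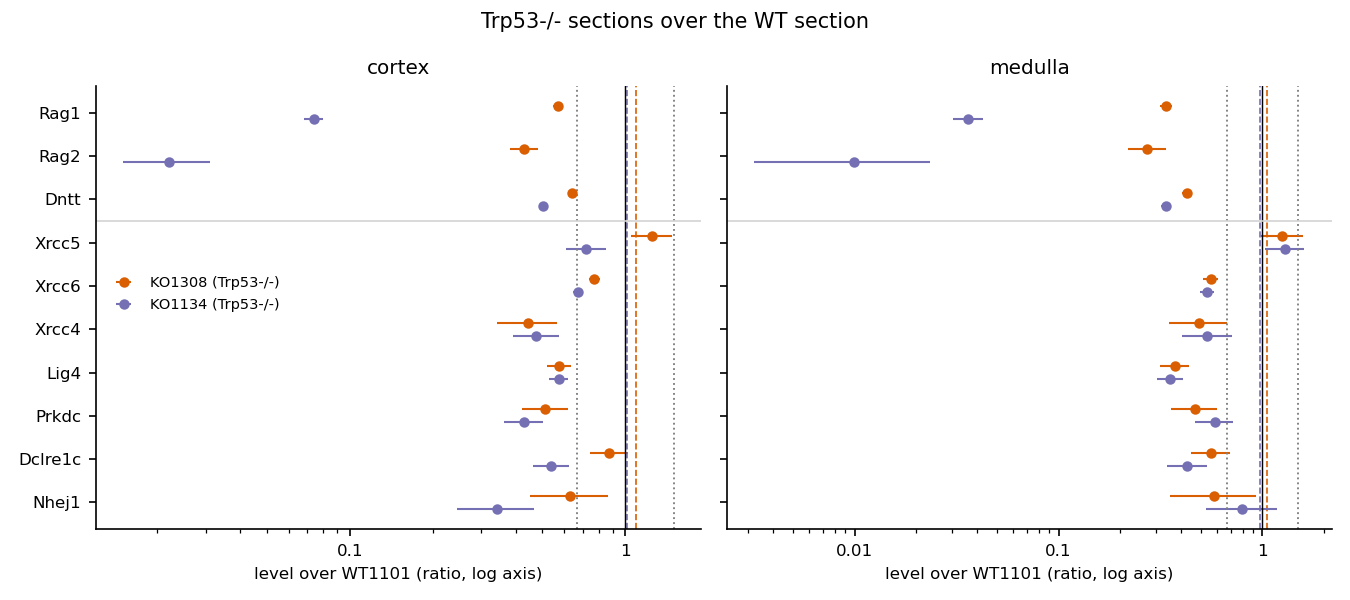
Ratio of each gene's level in the Trp53-/- sections to WT1101 (log axes) in cortex and medulla, with exact 95% conditional binomial intervals; the grey line separates the lymphoid genes (above) from the end-joining genes, dotted lines mark 1.5-fold and dashed lines the median gene. Rag1 and Rag2 of KO1134 lie far to the left, and Xrcc5 is the member nearest to or above 1.

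Xrcc6, Lig4, Xrcc4 and Prkdc were lower by similar factors in both Trp53-/- sections, unlike Rag1 and Rag2. The KO1308 and KO1134 ratios to WT cortex were 0.773 and 0.672 for Xrcc6, 0.576 and 0.572 for Lig4, 0.442 and 0.475 for Xrcc4, and 0.513 and 0.427 for Prkdc. Dclre1c gave 0.873 and 0.537 and Nhej1 0.630 and 0.341. Xrcc5 was the exception, at 1.25 (1.05 to 1.48) and 0.720 (0.609 to 0.849), on opposite sides of 1. Summed over the 7 end-joining genes the mean ratio was 0.676 ± 0.0767 (SD, n = 2 Trp53-/- sections), and without Xrcc6, the gene with most UMIs, it was 0.601. Summed over Rag1, Rag2 and Dntt it was 0.469 ± 0.195 (SD, n = 2). The difference between these sums, 0.607 against 0.730 in KO1308 and 0.331 against 0.621 in KO1134, went the same way in both sections. Gene by gene the lymphoid and end-joining ratios interleaved. Dntt stood at 0.643 in KO1308, above Xrcc4, Prkdc, Lig4 and Nhej1. In KO1134 it stood at 0.502, above Xrcc4, Prkdc and Nhej1.

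The makeup of the cortex also differed between the sections, and its part in the ratios was not tested. The 7 markers of CD4+CD8+ cortical thymocytes (Cd8a, Cd8b1, Cd4, Arpp21, Themis, Aqp11, Ccr9) summed to 2482 CPM in the cortex of KO1308, 626 in KO1134 and 4592 in WT1101. All 7 were detected in each section, and 4 and 7 of them were 1.5-fold lower than WT in KO1308 and KO1134 (backgrounds 11.3% and 20.2%). Cd8a stood at 815, 61.7 and 1967 CPM. The 6 early thymocyte markers (Il2ra, Ptcra, Kit, Dtx1, Hes1, Erg) ran the other way, at 216, 409.8 and 91.1 CPM in sum. Of these, 4 of 6 were at least 1.5-fold higher in each Trp53-/- section (backgrounds 26.8% and 24.7%). Il2ra was counted at 63.0, 176 and 36.9 CPM, but Ptcra at 12.9, 4.02 and 18.7. The 4 maturing thymocyte markers (Ccr7, S1pr1, Klf2, Il7r) summed to 192, 419 and 104 CPM. Most of that sum was Il7r, which early thymocytes also express, at 107, 308 and 57.4 CPM, while Ccr7 stood at 15.2, 14.8 and 12.8 and S1pr1 at 14.5, 12.4 and 9.28. The CD3 genes summed to 933, 619 and 1486 CPM. Proliferation genes (Mki67, Top2a, Pcna, Ccnb2) summed to 1480, 1236 and 1818 CPM. Cortical epithelial genes, which set the compartment, were level at 2332, 2360 and 2344 CPM.

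The direction of several members depended on the denominator. Per CD3 UMI, Rag1 in KO1308 was 0.908 of WT and Dntt 1.02, and in KO1134 Rag1 was 0.177, Rag2 0.0526, Dntt 1.20, Lig4 1.37 and Xrcc6 1.61. Per UMI of the CD4+CD8+ markers, Rag1 in KO1308 was 1.05 and Rag2 0.796, whereas in KO1134 Rag1 was 0.541, Rag2 0.161, Dntt 3.68 and Xrcc6 4.92. Cd8a and Cd8b1 made up 69.2% of these marker UMIs in WT and stood at 0.0313 and 0.0208 of WT in KO1134, against 0.634 for Aqp11 and 0.479 for Ccr9. Without Cd8a and Cd8b1 in the denominator, the KO1134 values were 0.194 for Rag1, 0.0576 for Rag2, 1.32 for Dntt and 1.76 for Xrcc6. Rag2 thus stayed below WT in both sections and Rag1 in KO1134 on each of the 6 scales tried, and for Dntt, Lig4 and Xrcc6 the lower level in KO1134 was present per total UMI and absent per thymocyte marker UMI.

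Levels within KO1134 were also compared between cortex bins rich in Trbc1 and the others. In 4734 of its 5129 cortex bins the surrounding window held more Trbc1 than Trbc2 UMIs, which was so for 11 bins of KO1308 and 0 of WT1101. Rag1 stood at 50.9 CPM in these bins and 41.4 in the other 395, Dntt at 611 and 542, Xrcc6 at 259 and 209.7, and Lig4 at 66.1 and 65.2. Rag1 was thus low on both sides of that division. The 395 bins are few, with 47 Rag1 UMIs. The division was set by sums over windows, so both sides can hold the same cells.

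**Figure D4:**
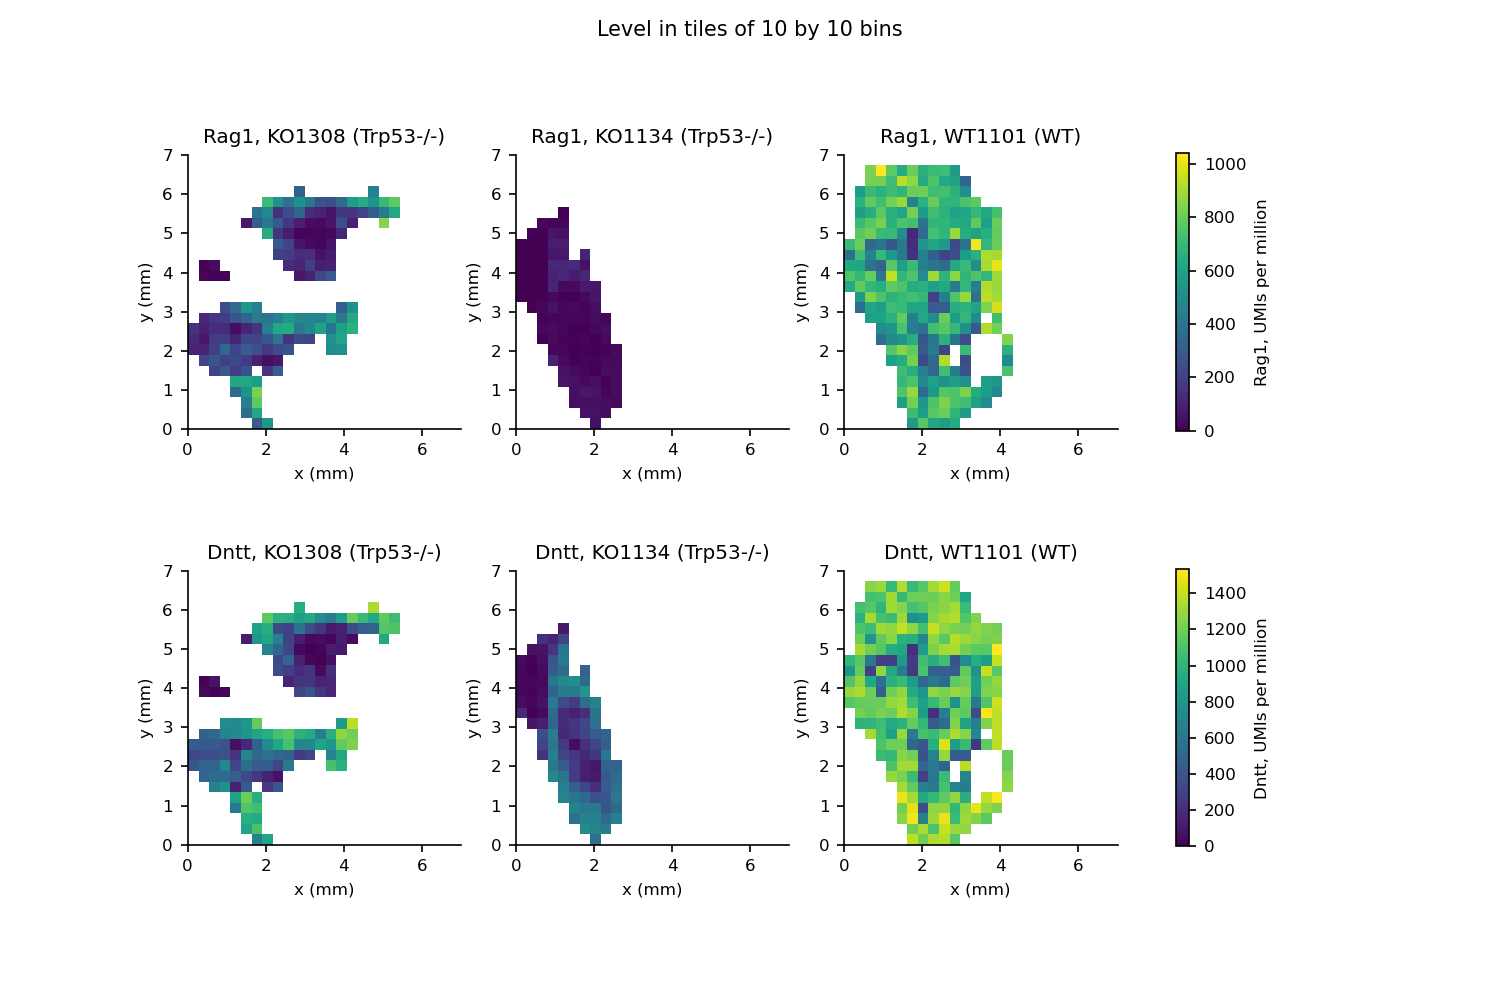
Maps of Rag1 (top) and Dntt (bottom) in CPM over tiles of 10 by 10 bins in the 3 sections, 1 colour scale per gene, positions in mm. Rag1 is low over the whole of KO1134, where Dntt still outlines the cortex.

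Tiles of 10 by 10 bins showed how even these levels were within a section. Of tiles with at least 80% of their bins in cortex, 38 in WT1101 ranged from 391 to 896 CPM of Rag1 with a median of 669. The 35 cortex tiles of KO1134 ranged from 11.3 to 112 with a median of 34.6, and none reached the lowest WT tile. The 35 of KO1308 spread from 69.2 to 780.1 with a median of 324, overlapping both other sections. For Dntt the KO1134 tiles (378 to 799 CPM, median 607) lay below the lowest WT tile (813), and the KO1308 tiles (232 to 1340.4, median 719) overlapped both. For Xrcc6 all 3 sections overlapped, with 102 to 464 CPM in KO1308, 134 to 423 in KO1134 and 288 to 527 in WT1101. Tiles of 1 section share a library and are no replicates of a condition.

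Across all tiles of a section (164, 117 and 284), the genes whose level was most like that of Rag1 were B230118H07Rik, with a mean Pearson r of 0.876 over the 3 sections on log2(CPM + 10), Dntt (0.837), Endou (0.796), Trbc1 (0.781) and Arpp21 (0.779). Xrcc6 came at rank 6 of 6975 genes with 0.772 and Lig4 at rank 95 with 0.606. No members other than Rag1, Dntt, Xrcc6 and Lig4 had the 500 UMIs per section needed, so Rag2 was not ranked. For Xrcc6 the most like were Dntt (0.846), Cdca7 (0.810), Stmn1 (0.81), Aqp11 (0.808) and Arpp21 (0.803). Rag1 UMIs per B230118H07Rik UMI were 0.801, 0.853 and 0.800 in cortex, so the gene that starts at the same base was lower in KO1134 by nearly the same factor. That equality did not extend to all of KO1134, where the ratio was 0.573 in medulla and 0.324 in the B-cell zone. At equal Dntt the Xrcc6 values of the 3 sections overlapped over tiles, whereas the Rag1 values of KO1134 lay apart. In sums, Xrcc6 UMIs per Dntt UMI were higher in both Trp53-/- sections than in WT. In cortex they were 0.378 (0.360 to 0.397) in KO1308, 0.421 (0.405 to 0.437) in KO1134 and 0.315 (0.306 to 0.323) in WT1101. In medulla they were 0.390, 0.474 and 0.298.

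**Figure D5:**
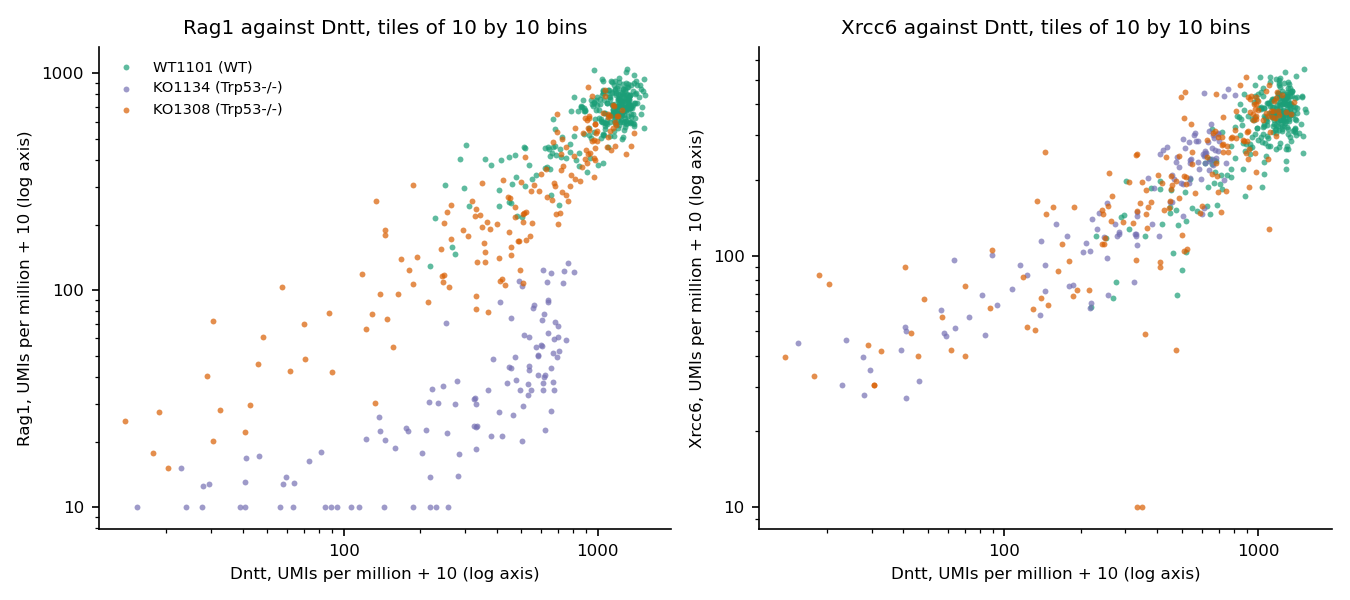
Rag1 (left) and Xrcc6 (right) against Dntt in tiles of 10 by 10 bins, as CPM plus 10 on log axes; each point is a tile, coloured by section. At equal Dntt, KO1134 tiles lie below the others for Rag1 and overlap them for Xrcc6.

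Other genes of the pathway gave counts nearer to the background. Of 33 listed partners and regulators, 3 were 1.5-fold lower and 2 higher in the cortex of KO1308 (backgrounds 11.3% and 26.8%), and 9 lower and 2 higher in that of KO1134 (backgrounds 20.2% and 24.7%), with median ratios of 0.983 and 0.885. With the median gene set to 1 the lower count in KO1308 became 6 (background 16.3%). Those lower in both sections were Hmgb2, a DNA-bending cofactor of the RAG recombinase (1081, 1415 and 2692 CPM in KO1308, KO1134 and WT1101), Bcl11b, a T lineage transcription factor (461, 282 and 743 CPM), and Satb1, a chromatin organiser known to act on the Rag locus in thymocytes (1413, 209.6 and 3607 CPM). Satb1 followed the section order of Rag1, with ratios of 0.392 and 0.0581 to WT beside 0.570 and 0.0738. That order was not particular to Satb1. The CD4+CD8+ thymocyte markers shared it, Cd8a at 0.414 and 0.0313, with the exception of Aqp11 at 0.532 and 0.634. A link between Satb1 and Rag1 was not tested. Poll, a gap-filling polymerase, was the only one higher in both, at 7.32 and 5.96 CPM against 3.61. In the groups, the 8 genes of end resection and alternative end joining had median ratios of 1.19 and 0.931, the 7 of break signalling 1.01 and 0.816, and the 6 of gap filling and end processing 1.07 and 0.819. The 10 regulators of the Rag genes had medians of 0.803 and 0.890, with 2 and 4 of them 1.5-fold lower, and the 2 RAG cofactors 0.624 and 0.733. For the members, the medians over the 7 end-joining genes were 0.630 and 0.537 and over the 3 lymphoid genes 0.570 and 0.0738.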

How the data were processed

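The authors built spatial libraries from polyA RNA on barcoded BMKMANU S1000 slides, processed reads and images with BSTMatrix and STAR on GRCm38, and deposited UMI counts per gene and spot, 1 matrix per section, not normalized; files of spot names, slide barcodes and gene names hold no measurement. Spots lie 4.8 µm apart and were summed here into bins of 27 µm. Bins with at least 300 genes and at most 30% mitochondrial UMIs, in connected groups of at least 200, were kept as tissue. In windows of 7 x 7 bins, compartments were set from epithelial, B cell and thymus genes that are not members. Genes with at least 50 UMIs in the 2 sums compared gave the background. Scripts used Python 3.11.15, numpy 2.4.6, scipy 1.17.1, pandas 2.3.3 and matplotlib 3.10.9, and were tested on simulated data. Of the gene IDs, 99.79% were in GENCODE M21. The named genes are the members, the listed pathway genes past 1.5-fold in the same direction in both Trp53-/- sections, the marker lists, Trp53, and the 5 genes most like Rag1 and Xrcc6 over tiles. B230118H07Rik, Desi1, Suv39h2 and Tmem167 are named as overlapping genes, and Trbc1 and Trbc2 for an area of KO1134, after their values were seen. Of the marker lists, 2 genes are not reported here and were left out of the sums. The members and lists were chosen with earlier results of these data known. Alternatives were other bins, filters, windows, limits and denominators, and each section left out.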

Additional observations from a re-analysis of the deposited data

Results flagged for a closer look

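Dclre1c, the hairpin-opening nuclease, was the 1 member whose cortex to medulla ratio lay on opposite sides of 1 in the genotypes. The ratio was 1.52 (1.21 to 1.93) in KO1308 and 1.22 (0.976 to 1.54) in KO1134, against 0.973 (0.846 to 1.12) in WT1101. The difference between the genotypes was not tested, and the counting intervals of KO1134 and WT1101 both include 1. Dclre1c shares exon bases with Suv39h2.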

How the results depend on the processing

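Over other bins, filters, windows and limits and without mitochondrial and ribosomal protein UMIs, the mean Trp53-/- to WT cortex ratio lay at 0.443 to 0.485 for the lymphoid and 0.657 to 0.696 for the end-joining sum, the cortex to medulla ratio at 1.99 to 2.18 and 1.65 to 1.83, and the Dntt per Rag1 ratio to WT at 3.95 to 4.04. Of 180 single-gene values under these settings 0 moved by over 1.5 times and 172 stayed on their side of 1. With CD3 UMIs as the denominator the mean Trp53-/- to WT cortex ratio was 0.880 for the lymphoid and 1.33 for the end-joining genes. With UMIs of the CD4+CD8+ markers, a choice made after seeing the data, it was 1.77 and 2.95, and without Cd8a and Cd8b1 among them 0.860 and 1.33. These denominators themselves differ between sections. For single genes, the mean ratio turned above 1 per CD3 UMI for Dntt (1.11), Lig4 (1.14), Xrcc5 (1.86), Xrcc6 (1.42) and Dclre1c (1.34), for the same 5 genes without Cd8a and Cd8b1 (1.11, 1.16, 1.82, 1.42 and 1.32), and per CD4+CD8+ marker UMI for Dntt (2.44), Xrcc4 (2.15), Lig4 (2.63), Prkdc (2.04), Nhej1 (1.83), Xrcc5 (3.79), Xrcc6 (3.18) and Dclre1c (2.78). Leaving out 1 section, the Trp53-/- to WT ratios lay at 0.331 to 0.607 (lymphoid) and 0.621 to 0.730 (end joining), the cortex to medulla ratios at 1.91 to 2.36 and 1.59 to 1.85, and the Dntt per Rag1 ratio to WT at 1.13 to 6.80. No paired analysis was possible because there is 1 WT section. Depth limits every member in the B-cell zone of KO1308 (under 100 UMIs each). The same holds for Rag1, Rag2, Xrcc4, Lig4, Dclre1c and Nhej1 in the B-cell zone of KO1134. Rag2, Xrcc4, Prkdc and Nhej1 are also limited in a cortex or medulla of the Trp53-/- sections, and Nhej1 in the medulla of WT1101.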

Other observations

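Bins outside cortex, medulla and B-cell zone, where neither epithelial list reached its section's average share, held 2822, 1780 and 8525 bins in KO1308, KO1134 and WT1101. In WT1101 they carried the members at cortical levels, with Rag1 at 707 CPM, Dntt at 1238, Xrcc6 at 379 and Lig4 at 111. The same class stood at 329, 601, 233 and 50.7 CPM in KO1308 and at 23.5, 238, 118 and 28.5 in KO1134. Adipocyte genes there summed to 7817 and 6607 CPM in the Trp53-/- sections and to 85.5 in WT1101, so the class does not hold the same tissue in the genotypes. In cortex bins, Rag1 and Dntt UMIs were found together in 5336 of the 6336 WT bins with Rag1, in 1329 of 2037 in KO1308 and in 519 of 635 in KO1134. Over all cortex bins, Dntt was found in 7898 of 9983, 3248 of 6262 and 3800 of 5129. B230118H07Rik was found in 4836, 1059 and 164 of the same Rag1 bins, and in 6990, 2437 and 707 of all cortex bins. What part depth has in these joint counts was not tested.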
